A study of Homo sapiens with 4 samples.

Results

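The genes described here encode the integrin and laminin subunits that join a cell to its surroundings, together with *DAG1* and *CD151*, and number 32 of the 22439 genes that could be named on the arrays. They were chosen by name, with earlier results of these data known, as a list of 20 integrin subunits, 10 laminin chains and these 2 partners. All 32 had at least 1 probe, 43 in total, with 25 genes resting on 1 probe. The cells were A549, an established line of human lung adenocarcinoma, grown in RPMI 1640. One sample was transfected with *miR-486-5p* and another with *miR-486-3p*, the 5p and 3p strands that are cut from the same hairpin precursor, and 2 mock samples received the transfection reagent (Lipofectamine RNAiMAX) alone. Total RNA from each was labelled with Cy3 and hybridized to 1 one-color Agilent array, so that the 4 arrays hold 1 sample of each strand and 2 mock samples. The mock samples received no control miRNA, so effects of taking up any small RNA and effects of these sequences cannot be told apart.

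Integrins are receptors of 1 alpha and 1 beta subunit that span the cell membrane, bind the extracellular matrix outside and the actin or keratin skeleton inside, and signal through kinases such as FAK and ILK. The alpha subunit largely sets the ligand, laminin, collagen, or proteins with an RGD motif such as fibronectin and vitronectin, while beta 1 is shared by the largest group of pairs. Laminins are trimers of an alpha, a beta and a gamma chain that form the sheet of the basement membrane under epithelia. Lung epithelial cells anchor to it through hemidesmosomes, in which alpha 6 beta 4 holds a laminin that contains *LAMA3* and *LAMB3*, and through dystroglycan.

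Each array had 30690 to 31516 of its 58201 probes well above background, a flag that the scanner software sets, and no saturated spot. Of the 43 probes of these genes, 34 were well above background on all 4 arrays, and between one mock array and the other these differed with an SD of 0.145 (log2). The keratins *KRT7*, *KRT8*, *KRT18* and *KRT19* were well above background on every array, whereas *CDH1*, the defining adhesion molecule of epithelium, was so on none and *EPCAM* on 2. The summed signal of these 6 epithelial markers was 26248 and 26077 in mock, 17845 with the 5p strand and 16105 with the 3p strand. These sums were not scaled between arrays. Most of each came from 1 *KRT18* probe, at 19651 and 19198 in mock, 11864 with the 5p strand and 11863 with the 3p strand. Scaled as described below, the log2 differences for the 5p and 3p strands were 0.15 and −0.22 for *KRT7* and −0.57 and −0.41 for *KRT18*. They were −0.99 and 0.45 for *KRT19*, and −0.05 and −0.97 for *KRT8*, whose probes went both ways for each strand. The summed signal ranged from 132 to 160 for 7 leukocyte markers, of which *LCP2*, *CD48* and *CD53* were not well above background on any array, from 57.2 to 71.1 for 5 endothelial markers, and from 27.0 to 43.7 for 5 fibroblast markers, with the highest fibroblast and leukocyte sums after *miR-486-3p*. The part of these markers in the results was not tested. In RNA from whole cultures of this cell line, fewer cells that express a gene and less RNA per cell cannot be told apart.

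Signals below are the processed spot signals on a linear scale. Differences are on the log2 scale after each array was scaled to its 75th percentile, taken from the transfected array against the average of both mock arrays, and a difference that includes a group not well above background is a bound. A gene passed the test if at least 1 of its probes had an adjusted p of 0.05 or less by limma. The limma fit used the signals without that bound, so an adjusted p beside a bound belongs to the unbounded difference. The residual spread came from the 2 mock arrays alone (1 degree of freedom), so each transfected array is taken to vary as the mock arrays do, and whether those came from separate cultures was not tested. Each p therefore sets a difference against the spread between the mock arrays, which limma draws toward that of all probes (a prior of 1.75 degrees of freedom). That spread may be technical.

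After the 3p strand, 21 of the 31 genes with a value passed the test, whereas 8 of 31 did so after the 5p strand. For the 5p strand, 6 were lower (19.4%) and 2 higher (6.45%), against 6.79% lower and 3.52% higher among all 16024 genes with a value. For the 3p strand, 10 were lower (32.3%) and 11 higher (35.5%), against 31.8% and 32.2% among 16446 genes, so the shares among these genes lay near those of the whole array. By size alone, 10 genes lay under −0.5 and 5 over 0.5 after the 5p strand (15.9% and 13.8% of all genes), and 9 and 11 after the 3p strand (27.2% and 30.4% of all genes). The median difference of the members was −0.11 after the 5p strand (0.03 over all genes) and −0.03 after the 3p strand (0.06 over all genes). The adjusted p of the 8 genes that passed for the 5p strand lay between 0.0475 and 0.0488, and no gene passed for this strand without the filter on dim probes or on the authors' log2 values, where 20 and 21 of the members had an unadjusted p under 0.05. The methods' t-test passed none of the members for either strand after Benjamini-Hochberg adjustment, with 11 for the 5p strand and 17 for the 3p strand at an unadjusted p under 0.05.

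The direction of the smaller differences after the 3p strand depends on the scaling. Centering each array on its median in place of its 75th percentile moved the median of all genes by −0.37 for the 3p strand and by −0.08 for the 5p strand. The members that passed for the 3p strand then numbered 15 lower and 10 higher, and over all genes 7523 lower and 3400 higher, against 5233 lower and 5291 higher with the main scaling. Under quantile normalization the members numbered 11 lower and 12 higher. None of the 21 members that passed with the main scaling turned direction under either of these scalings. *ITGA2*, *ITGA9*, *ITGA11* and *LAMB1*, none of which passed, turned from above 0 to below 0 with median scaling, and *ITGA2* and *ITGA11* also with quantile normalization, which turned *ITGA3* the other way (−0.07 to 0.08).

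**Figure D1:**
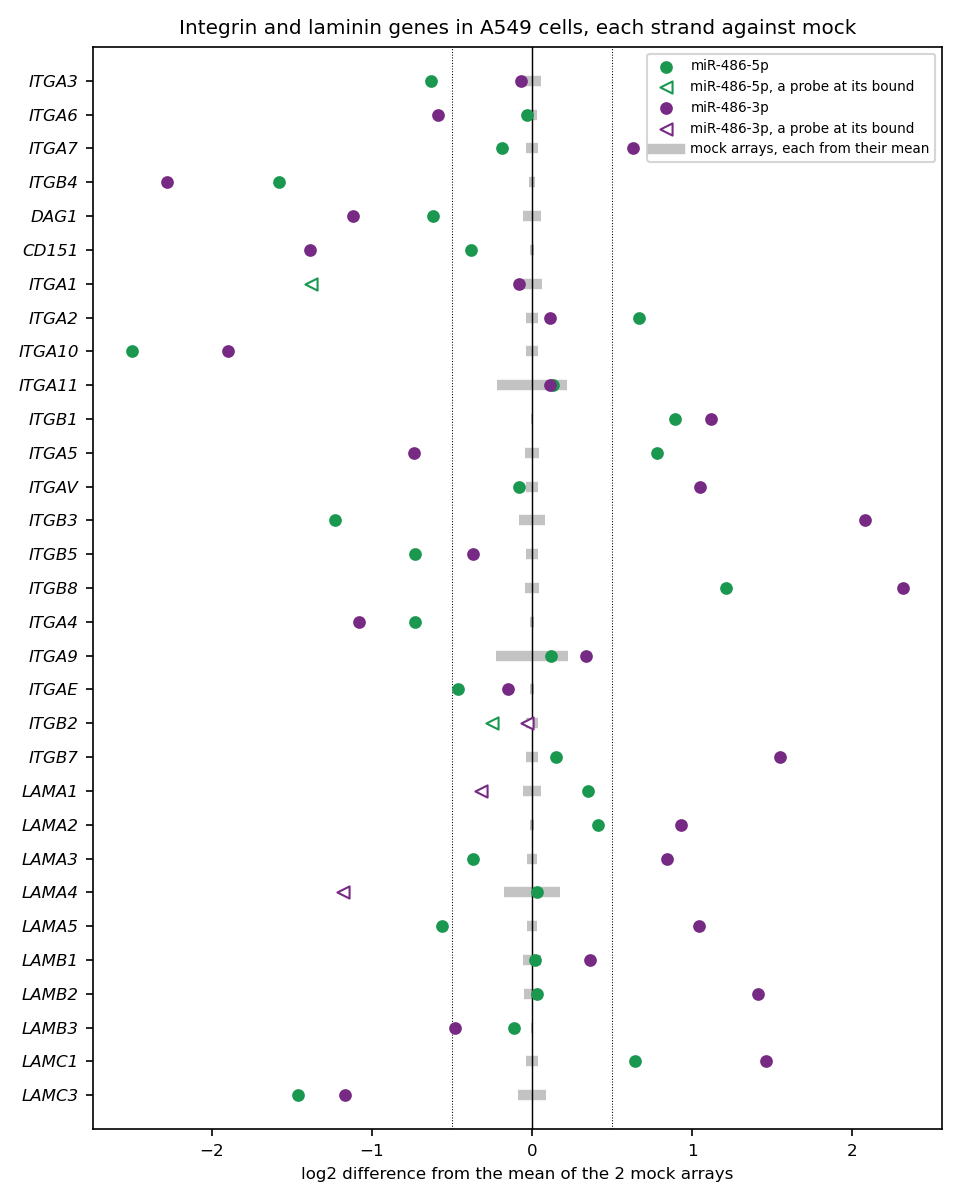
Log2 difference of each gene from the mean of the 2 mock arrays (horizontal axis) for *miR-486-5p* (green) and *miR-486-3p* (purple), 1 array each, for the 31 genes with a value, ordered by role. Gray bars show how far each mock array lay from their mean, open triangles mark genes with a probe at its bound, and dotted lines mark 0.5 and −0.5; *ITGB8* and *ITGB1* lie to the right and *ITGA10*, *ITGB4* and *LAMC3* to the left for both strands, while *ITGB3* and *ITGA5* lie on opposite sides.

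Promoter sequences were at hand for 23 of the 32 genes. Those of *ITGB1* and *ITGB8*, which were higher in both comparisons, and of *ITGA4* and *ITGA10*, which were lower in both, are shown as examples of genes that passed for both strands. Both comparisons use the same mock arrays, so that one is no independent repeat of the other. Each runs over the 250 bases before the start of transcription, 5′ to 3′ on the strand of the gene, from RefSeq on GRCh38.p14, with *ITGB1* taken at the first of its 2 listed starts. Capitals mark matches on either strand to the GC box (GGGCGG), the CCAAT box (CCAAT), the TATA box (TATAAA) and the AP-1 motif (TGANTCA), none of which overlapped here.
ITGB1 (chr10:32958231-32958480, minus strand): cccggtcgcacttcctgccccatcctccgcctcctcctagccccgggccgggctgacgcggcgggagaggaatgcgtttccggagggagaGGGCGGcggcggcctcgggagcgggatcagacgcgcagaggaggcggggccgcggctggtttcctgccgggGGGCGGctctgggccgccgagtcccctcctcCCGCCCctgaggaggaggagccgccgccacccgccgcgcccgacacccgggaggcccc
ITGB8 (chr7:20330650-20330899, plus strand): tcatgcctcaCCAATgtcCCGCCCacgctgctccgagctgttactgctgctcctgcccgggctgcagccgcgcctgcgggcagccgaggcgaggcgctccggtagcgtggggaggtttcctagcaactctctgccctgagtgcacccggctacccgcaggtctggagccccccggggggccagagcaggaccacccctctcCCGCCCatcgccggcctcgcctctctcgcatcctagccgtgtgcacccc
ITGA4 (chr2:181457136-181457385, plus strand): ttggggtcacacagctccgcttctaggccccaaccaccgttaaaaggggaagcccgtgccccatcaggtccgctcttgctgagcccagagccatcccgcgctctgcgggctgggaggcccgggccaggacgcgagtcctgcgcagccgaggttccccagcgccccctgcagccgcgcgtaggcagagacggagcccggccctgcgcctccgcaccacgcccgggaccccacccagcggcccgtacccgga
ITGA10 (chr1:145910051-145910300, minus strand): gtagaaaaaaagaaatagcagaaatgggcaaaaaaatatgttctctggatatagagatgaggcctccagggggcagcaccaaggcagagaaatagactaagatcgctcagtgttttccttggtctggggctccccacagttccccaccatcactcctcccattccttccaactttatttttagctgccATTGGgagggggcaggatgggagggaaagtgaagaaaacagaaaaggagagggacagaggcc
The window of *ITGB1* held 3 GC boxes and that of *ITGB8* held 2 GC boxes and 1 CCAAT box. The window of *ITGA10* held 1 CCAAT box, and none of these letters occurred in that of *ITGA4*. Among the 35116 promoter windows of this length, 42.6% held the GC box, 11240 windows the CCAAT box, 10.7% the TATA box and 6.57% the AP-1 motif.

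*ITGB1*, the beta subunit that pairs with most of the alpha subunits below, rose after both strands. Its probe read 533 and 531 in mock, 907 after the 5p strand and 944 after the 3p strand. Both transfected arrays were thus above both mock arrays. The difference was 0.89 ± 0.0874 (SE, limma) or 1.86-fold for the 5p strand (adjusted p = 0.0479) and 1.12 ± 0.0874 or 2.18-fold for the 3p strand (adjusted p = 0.0101).

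Among the laminin-binding receptors, *ITGB4*, the beta subunit of hemidesmosomes, fell after both strands. Its signal was 251 and 245 in mock, 76.3 after the 5p strand and 41.7 after the 3p strand. The fall was 2.98-fold for the 5p strand (−1.58 ± 0.0895, adjusted p = 0.0475) and 4.85-fold for the 3p strand (−2.28 ± 0.0895, adjusted p = 0.00762). *ITGA6*, its alpha partner, fell after the 3p strand, with both of its probes past the threshold. They read 1815 and 1755, and 832 and 789, in mock, 1590 and 737 after the 5p strand, and 902 and 473 after the 3p strand, a mean difference of −0.03 for the 5p strand and −0.59 for the 3p strand (−0.96 with median scaling).

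*CD151*, a tetraspanin that binds laminin receptors in the membrane, read 15034 and 14867 in mock, 10557 after the 5p strand and 4663 after the 3p strand. It fell 2.61-fold after the 3p strand (−1.39 ± 0.0878, adjusted p = 0.00860), and the difference for the 5p strand, −0.38, did not pass (adjusted p = 0.0949). *DAG1*, which encodes both subunits of dystroglycan, read 376 and 407 in mock, 232 after the 5p strand and 147 after the 3p strand. Its fall of 2.17-fold after the 3p strand passed (−1.12 ± 0.106, adjusted p = 0.0125), and the difference of −0.62 for the 5p strand did not (adjusted p = 0.0657).

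The other alpha subunits of this group gave other values. *ITGA3*, which pairs with beta 1, read 984 and 1066 in mock, 608 after the 5p strand and 793 after the 3p strand, and passed for neither strand (−0.63, adjusted p = 0.0655, and −0.07, adjusted p = 0.586). *ITGA7*, the laminin receptor known from muscle, read 158 and 166 in mock, 130 after the 5p strand and 204 after the 3p strand, and rose 1.54-fold after the 3p strand (0.63 ± 0.0955, adjusted p = 0.0249), a call that was lost with median scaling (0.25). Over the 6 genes of this group, 1 was lower and none higher for the 5p strand, and 4 were lower and 1 higher for the 3p strand, with medians of −0.50 and −0.85. Among all genes 6.79% were lower and 3.52% higher for the 5p strand, and 31.8% and 32.2% for the 3p strand. With normexp, another background correction that adds a constant to every signal and so shrinks the differences of dim probes, the *ITGB4* difference for the 3p strand was −1.36.

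*ITGA10*, a collagen-binding subunit known from cartilage, showed the largest fall of any member for the 5p strand. The probe read 137 and 130 in mock, 21.6 after the 5p strand and 29.1 after the 3p strand, with no overlap between transfected and mock arrays. The fall was 5.66-fold for the 5p strand (−2.50 ± 0.0945, adjusted p = 0.0475) and 3.74-fold for the 3p strand (−1.90 ± 0.0945, adjusted p = 0.00768), and normexp reduced both, to −1.20 and −0.95.

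*ITGA1*, another collagen receptor, was dim, with 12.7 and 11.7 in mock and 9.43 after the 3p strand. After the 5p strand it was not well above background at 3.91, which puts it at least 2.61-fold lower than mock (adjusted p = 0.0475 by limma, for the unbounded difference of −1.51), whereas the difference was −0.08 for the 3p strand. With normexp the 5p difference was −0.11 and did not pass. *ITGA2*, the main collagen receptor of epithelia, read 17.8 and 18.9 in mock, 26.8 after the 5p strand and 16.1 after the 3p strand. Its difference of 0.67 for the 5p strand did not pass (adjusted p = 0.0573, and 0.21 in size with normexp). *ITGA11* lay between 10.4 and 14.1 on all 4 arrays, within the spread of the mock arrays.

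**Figure D2:**
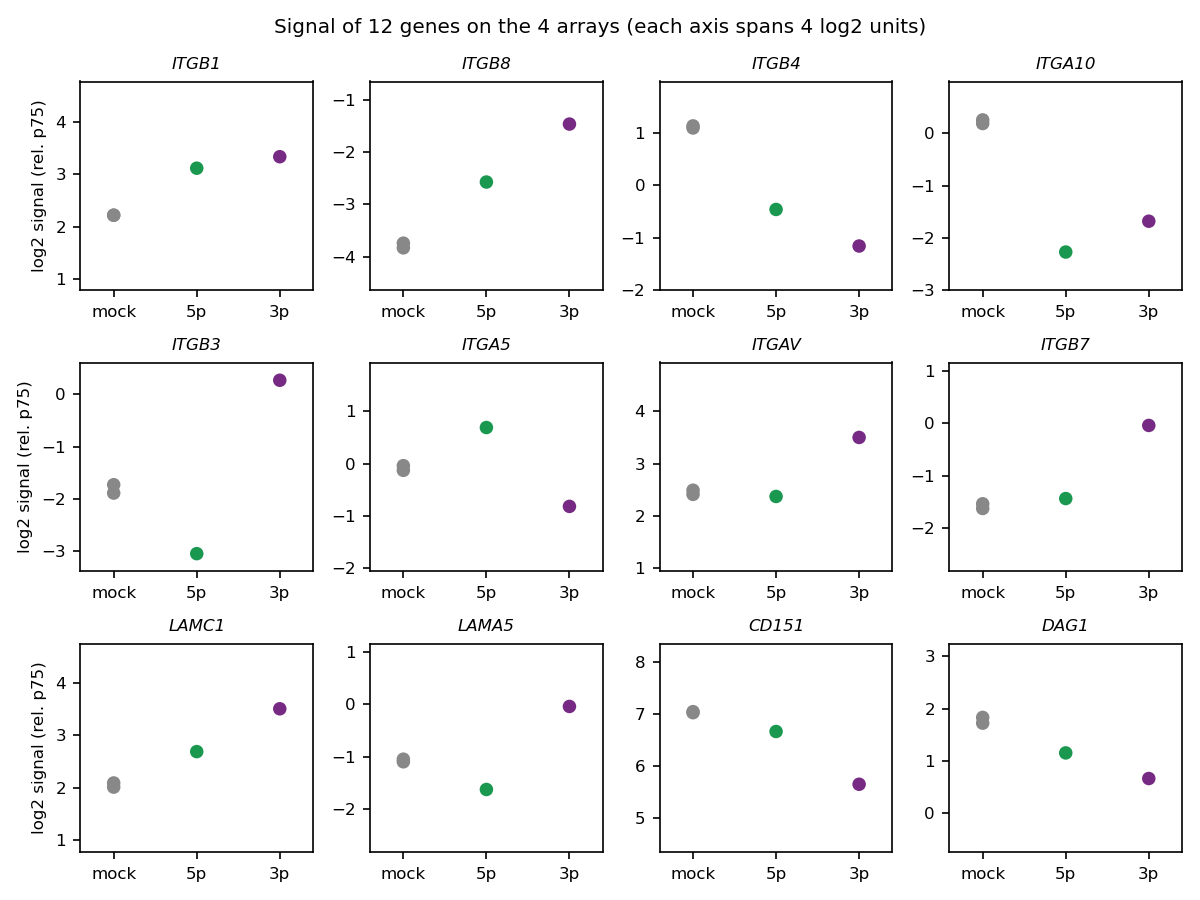
Log2 signal over each array's 75th percentile (vertical axis, 4 log2 units in every panel) for 12 genes on the 2 mock arrays (gray), the *miR-486-5p* array (green) and the *miR-486-3p* array (purple), 1 point per array. The mock points nearly coincide, and *ITGB1*, *ITGB8* and *LAMC1* lie above them and *ITGB4*, *ITGA10*, *CD151* and *DAG1* below them on both transfected arrays.

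The RGD-binding receptors lay between −0.74 and 2.32 after the 3p strand. *ITGB3*, which with alpha V forms the vitronectin receptor, read 34.3 and 30.7 in mock, 12.7 after the 5p strand and 112 after the 3p strand. It lay below both mock arrays for one strand and above both for the other. The probe was 2.35-fold lower after the 5p strand (−1.23 ± 0.122, adjusted p = 0.0480) and 4.23-fold higher after the 3p strand (2.08 ± 0.122, adjusted p = 0.00825).

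*ITGB8*, whose pair with alpha V binds latent TGF-beta, was dim in mock at 8.56 and 8.04 and read 17.6 after the 5p strand and 33.8 after the 3p strand. It rose 2.31-fold (1.21 ± 0.0995, adjusted p = 0.0475) and 5.00-fold (2.32 ± 0.0995, adjusted p = 0.00762). *ITGAV*, the alpha subunit that these beta subunits share, read 641 and 608 in mock, 542 after the 5p strand and 1056 after the 3p strand, and rose 2.07-fold after the 3p strand (1.05 ± 0.0966, adjusted p = 0.0120; 0.68 with median scaling). Its difference for the 5p strand was −0.08.

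*ITGA5*, the alpha subunit of the classical fibronectin receptor, read 104 and 111 in mock, 169 after the 5p strand and 52.5 after the 3p strand. It fell 1.67-fold after the 3p strand (−0.74 ± 0.0988, adjusted p = 0.0203; −1.11 with median scaling and −0.38 with normexp), and the difference of 0.78 for the 5p strand did not pass (adjusted p = 0.0532). *ITGB5* read 514 and 545 in mock, 292 after the 5p strand and 334 after the 3p strand, and passed for neither strand (−0.73, adjusted p = 0.0548, and −0.37, adjusted p = 0.0654). *ITGB6*, the epithelial partner of alpha V, was not well above background on any array and has no value. In the *ITGB3* and *ITGB8* comparisons normexp gave smaller differences of the same sign, −0.32 and 1.08 for *ITGB3* and 0.27 and 0.64 for *ITGB8*.

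Of the subunits best known from leukocytes, *ITGA4*, a receptor for VCAM1 and fibronectin, fell after both strands. Its 3 probes read 119, 41.9 and 278 on the first mock array, 124, 46.0 and 256 on the second, 59.2, 25.8 and 157 after the 5p strand, and 43.7, 19.0 and 97.5 after the 3p strand. All 3 were below both mock arrays for both strands, with a mean difference of −0.73 for the 5p strand, where 1 of the 3 probes passed (adjusted p = 0.0487), and −1.08 for the 3p strand, where all 3 passed (lowest adjusted p = 0.0103). Normexp gave −0.38 and −0.56, and no probe of *ITGA4* passed for the 5p strand when the brightest probe stood for the gene.

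*ITGB7*, which pairs with alpha 4 or alpha E in lymphocytes, read 36.9 and 39.2 in mock, 38.7 after the 5p strand and 90.5 after the 3p strand. The rise of 2.92-fold after the 3p strand passed (1.55 ± 0.0978, adjusted p = 0.00860; 0.82 with normexp), and the difference for the 5p strand was 0.15. *ITGAE*, the alpha E subunit, read 439 and 433, 291 and 320 in the same order and passed for neither strand (−0.46, adjusted p = 0.0751, and −0.15, adjusted p = 0.247). *ITGA9* lay between 16.0 and 21.9 on all 4 arrays and passed for neither strand (0.12, adjusted p = 0.745, and 0.34, adjusted p = 0.322). *ITGB2*, the beta subunit shared by leukocyte integrins, was barely above background in mock (5.39 and 5.72) and not well above it on the others.

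None of the laminin alpha chains passed for the 5p strand, for which 6.79% of all genes were lower and 3.52% higher, and of the 5 chains 3 were higher and 1 lower for the 3p strand, for which 32.2% of all genes were higher and 31.8% lower. *LAMA5*, the chain most widespread in adult epithelial basement membranes, read 53.0 and 55.3 in mock, 33.7 after the 5p strand and 90.4 after the 3p strand. It rose 2.05-fold after the 3p strand (1.04 ± 0.0922, adjusted p = 0.0116; 0.66 with median scaling and 0.57 with normexp), and for the 5p strand the difference was −0.56 (adjusted p = 0.0640). *LAMA2*, the chain that binds dystroglycan in muscle, read 73.4 and 72.1 in mock, 88.4 after the 5p strand and 113 after the 3p strand, a rise of 1.90-fold for the 3p strand (0.93 ± 0.0886, adjusted p = 0.0126; 0.55 with median scaling and 0.58 with normexp).

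The probes of 2 alpha chains differed from each other. Of the *LAMA3* probes, one read 18.7 and 17.0 in mock, 10.6 after the 5p strand and 39.0 after the 3p strand (1.42 ± 0.113 for the 3p strand, adjusted p = 0.0103). The other, which lies on a different listed transcript, read between 10.3 and 12.4 on all 4 arrays (0.26, adjusted p = 0.101). For *LAMA4*, a chain known from vessels and fat, the brightest probe read 52.0 and 44.5 in mock and 45.2 after the 5p strand, and was not well above background at 4.89 after the 3p strand, which puts it at least 8.02-fold lower (adjusted p = 0.00767). A second *LAMA4* probe read 24.9 and 26.6, 26.5 and 21.5 and differed by 0.03 for the 3p strand (adjusted p = 0.788). The third in use read 11.1 and 5.84, 6.88 and 1.38 and was at least 1.48-fold lower, although the mock arrays differed by 0.93 on it. Its adjusted p of 0.0465 by limma belongs to the unbounded difference of −2.25, which uses the signal under background. A fall of *LAMA4* after the 3p strand thus rests on some of its probes, and its difference was 0.03 on the only probe that cleared background on every array. *LAMA1* was near background, with 6.55 and 7.09 in mock, 7.97 after the 5p strand and 4.46, not well above background, after the 3p strand.

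Of the beta chains, *LAMB2* rose after the 3p strand on both of its probes. One read 201 and 223 in mock, 211 after the 5p strand and 496 after the 3p strand, and the other 910, 941, 818 and 1861 in that order. The mean difference was 1.41 or 2.66-fold for the 3p strand (lowest adjusted p = 0.00910) and 0.03 for the 5p strand. *LAMB1* read 795 and 736, 709 and 800 and passed for neither strand. *LAMB3*, of the hemidesmosomal laminin, read 1612 and 1604, 1365 and 940, and fell 1.39-fold after the 3p strand (−0.48 ± 0.0874, adjusted p = 0.0336), a call that was lost under quantile normalization and on the authors' log2 values (−0.29 in both).

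The gamma chains went opposite ways after the 3p strand. *LAMC1*, the gamma chain of most laminins, read 485 and 460 in mock, 674 after the 5p strand and 1059 after the 3p strand. Its rise of 2.75-fold after the 3p strand passed (1.46 ± 0.0965, adjusted p = 0.00882), and the difference of 0.64 for the 5p strand did not (adjusted p = 0.0592). *LAMC3*, a gamma chain of restricted expression, read 160 and 171 in mock, 57.5 after the 5p strand and 60.0 after the 3p strand on one probe, and a dimmer probe gave differences of −1.52 and −1.16. Both passed for both strands, with mean differences of −1.46 (2.75-fold) and −1.17 (2.24-fold). Without the second mock array the third, dim probe came into use and the means were −1.01 and −0.74, and with normexp they were −0.62 and −0.47.

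**Figure D3:**
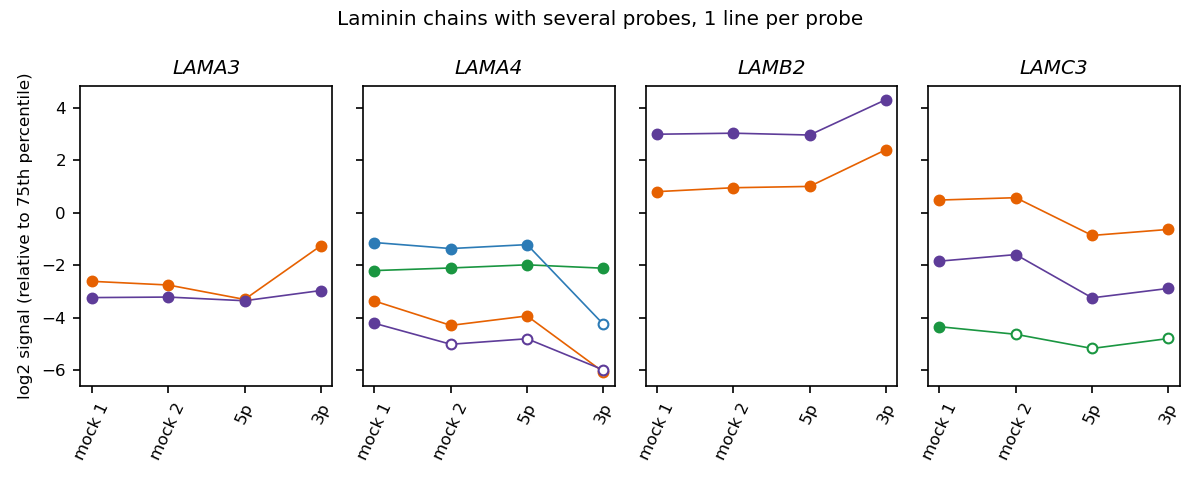
Log2 signal over each array's 75th percentile (vertical axis) of every probe of 4 laminin chains on the 4 arrays, 1 line per probe, with open points where the probe was not well above background. The lines of *LAMB2* and of the 2 brighter *LAMC3* probes run in parallel, while those of *LAMA3* and *LAMA4* part on the *miR-486-3p* array.

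The difference between the strands was tested directly, as the 3p array minus the 5p array, which uses no mock level. In this comparison 19 of 30 members passed, 7 lower and 12 higher after the 3p strand (23.3% and 40.0%), against 27.4% lower and 26.7% higher among 16561 genes. With median scaling, which moved the median of all genes by −0.30, they numbered 10 lower and 8 higher, and over all genes 6383 lower and 3170 higher, against 4534 and 4421. *ITGB3* had the largest difference of the members, 3.32 ± 0.141 or 9.96-fold higher after the 3p strand (adjusted p = 0.0119; 1.40 with normexp). *LAMA5* was 3.02-fold higher (1.59 ± 0.106, adjusted p = 0.0124), *ITGB7* 2.63-fold higher (1.40 ± 0.113, adjusted p = 0.0142) and *ITGAV* 2.19-fold higher (1.13 ± 0.112, adjusted p = 0.0170).

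On the other side, *ITGA5* was 2.86-fold lower after the 3p strand than after the 5p strand (−1.52 ± 0.114, adjusted p = 0.0133) and *CD151* 2.01-fold lower (−1.01 ± 0.101, adjusted p = 0.0174). *ITGB8*, which rose after both strands, was 2.16-fold higher after the 3p strand (1.11 ± 0.115, adjusted p = 0.0180), and *ITGB4*, which fell after both, was 1.63-fold lower (−0.70 ± 0.103, adjusted p = 0.0283). *ITGB1* and *LAMC3* did not pass (0.23 ± 0.101, adjusted p = 0.175, −0.07 with median scaling, and 0.29, lowest adjusted p = 0.209), which does not show that the strands acted alike on them. The calls of *ITGA7*, *ITGA10*, *LAMA2* and *LAMC1* were lost with median scaling (0.52, 0.30, 0.22 and 0.52). Normexp gave −0.89 for *ITGA5*, 0.81 for *LAMA5*, 0.75 for *ITGB7*, 0.37 for *ITGB8* and −0.27 for *ITGB4*.

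**Figure D4:**
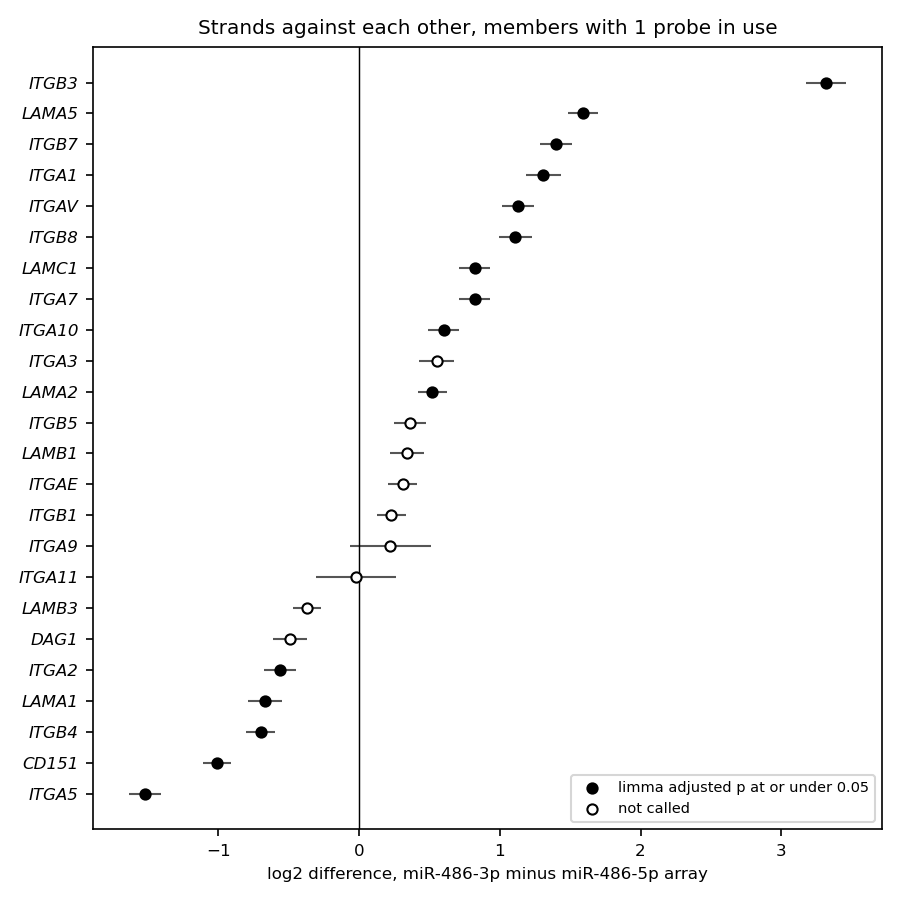
Log2 difference between the *miR-486-3p* and *miR-486-5p* arrays (horizontal axis), with the limma standard error as bars, for the 24 genes with 1 probe in use, ordered by size. Filled points passed the test; *ITGB3* lies far to the right at 3.32 and *ITGA5* farthest to the left at −1.52.

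Other genes of the pathway were taken as lists, in which a gene counts as lower or higher if any of its probes passed in that direction. Beside their counts stand the shares of all genes that passed, which were 6.79% lower and 3.52% higher for the 5p strand and 31.8% lower and 32.2% higher for the 3p strand. Of 30 genes of the integrin adhesome, the scaffold and kinase proteins that gather at the inner side of integrins, 28 had a value, and 16 were lower (57.1%) and 5 higher (17.9%) after the 3p strand, 1 gene with probes in each direction being in both counts (median −0.47, against 0.06 over all genes). After the 5p strand 2 were lower (7.14%) and 1 higher (3.57%), near the shares of all genes (median 0.01, against 0.03). *ZYX*, an actin-binding protein of focal adhesions, read 1108 and 1278 in mock, 1011 after the 5p strand and 175 after the 3p strand, a fall of 5.55-fold for the 3p strand (adjusted p = 0.00801). *PTK2B*, a kinase related to FAK, rose 2.54-fold after the 3p strand (1.34, adjusted p = 0.00874). For the 5p strand the extreme members did not pass, *TNS3* at −1.06 (adjusted p = 0.0609) and *ILK* at 0.67 (adjusted p = 0.0578).

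Among 20 other basement membrane and matrix genes, 4 were lower (22.2%) and 1 higher (5.56%) of 18 for the 5p strand, the latter a gene well above background on the 5p array alone, and 5 were lower (29.4%) and 4 higher (23.5%) of 17 for the 3p strand, with medians of −0.26 and −0.12. *SPP1*, or osteopontin, an RGD ligand of the alpha V integrins, read 374 and 350 in mock, 137 after the 5p strand and 27.1 after the 3p strand. It fell 2.42-fold (−1.27, adjusted p = 0.0475) and 10.9-fold (−3.44, adjusted p = 0.00762). *AGRN*, a heparan sulfate proteoglycan that binds laminin and dystroglycan, rose 2.02-fold after the 3p strand on both probes (lowest adjusted p = 0.0117), and *COL4A5*, a type IV collagen chain, had the highest value for the 5p strand among the genes of the list well above background on all 4 arrays, without passing (0.84, adjusted p = 0.0521). *FN1*, fibronectin, was dim on its 1 probe, with 10.0 and 8.40 in mock, 6.60 after the 3p strand and 3.70, not well above background, after the 5p strand, and passed for neither strand (adjusted p = 0.0552 for the 5p strand and 0.405 for the 3p strand).

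The list of hemidesmosome, tetraspanin and other laminin-binding genes had 12 genes with a value, of which 2 were lower (16.7%) and none higher for the 5p strand, and 5 lower (41.7%) and 4 higher (33.3%) for the 3p strand, again with 1 gene in both counts, with medians of 0.06 and 0.12. *COL17A1*, the collagen that joins alpha 6 beta 4 in hemidesmosomes, read 22.8 and 22.1 in mock, 7.79 after the 5p strand and 9.16 after the 3p strand. It fell 2.64-fold and 2.00-fold (adjusted p = 0.0475 and 0.0119). *CD82*, a tetraspanin like *CD151*, rose 2.49-fold after the 3p strand (1.31, adjusted p = 0.00890), and the syndecan *SDC4* had the highest value for the 5p strand among those well above background on all 4 arrays, without passing (0.36, adjusted p = 0.119).

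Of 25 genes of the dystroglycan complex and its glycosylation, none was lower and 2 were higher (8.70%) of 23 for the 5p strand, and 4 were lower (18.2%) and 6 higher (27.3%) of 22 for the 3p strand, with medians of −0.04 and −0.11. *SSPN*, or sarcospan, a membrane protein of that complex, read 7.64 and 8.49 in mock, 26.7 after the 5p strand and 109 after the 3p strand. It was dim in mock, and it rose 3.62-fold (1.85, adjusted p = 0.0475) and 16.5-fold (4.05, adjusted p = 0.00762). *DAG1* itself was lower, which passed for the 3p strand (−1.12, adjusted p = 0.0125) and not for the 5p strand (−0.62, adjusted p = 0.0657).

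Finally, of 9 further integrin and laminin genes, 4 had a value for the 5p strand and 5 for the 3p strand, and *ITGA8*, *ITGAD*, *ITGAL* and *LAMB4* were not well above background on any array. *ITGAM* and *ITGA2B* gave −0.37 (the 5p strand) and 0.31 (the 3p strand) and did not pass. *ITGAX*, the alpha X subunit of myeloid cells, was singled out after its values were seen and entered the comparison only through the 3p array, so its difference is a description with no test. It read 3.12 and 2.50 in mock and 4.01 after the 5p strand, none well above background, and 125 after the 3p strand, which is at least 35.5-fold higher than mock. Of the 7 leukocyte markers with a probe, 4 had a value for the 3p strand, of which 2 passed as higher and 1 as lower. Among them the myeloid marker *CD14* read 18.3 and 19.9 in mock, 30.3 after the 5p strand and 72.8 after the 3p strand. Of the others, *LCP2* and *CD48* stayed between 0.953 and 1.04, while *CD53* read 1.08 and 1.07 in mock, 1.08 after the 5p strand and 4.92 after the 3p strand, not well above background on any array. The samples were cultures of the A549 line, and the source of the *ITGAX* value was not tested.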

How the data were processed

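RNA of A549 cells was hybridized to 4 Agilent arrays in one color. The authors deposited, per the file headers, the output of Agilent Feature Extraction 12.1.1.1 for each array (array annotation on hg19), with the intensity of each spot on a linear scale from which the software had removed background. A second file deposited by the authors gives log2 values for the same arrays, whose normalization is not given in the sources used here; its median was 2.76 on every array and its Pearson correlation with the scanner's log2 signal was 0.99962 to 0.99994. It served as an alternative.

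Control spots and 50 to 72 outlier spots per array were left out, spots of a probe were averaged, and log2 of the processed signal minus its 75th percentile on that array was taken. A probe entered a comparison if it cleared background (by the scanner's flag) in both mock samples or in the transfected one. A group not well above background was raised to the lowest signal well above it (4.28 to 4.43) where its own was lower. Gene values are means over probes in use. Probes were named through RefSeq accessions in a table of GRCh38.p14, used for names alone; 31104 of 33080 matched. limma 3.58.1 (R 4.3.3) was fitted to all 4 arrays in 3 groups on 33498 probes, with Benjamini-Hochberg adjustment over all of them and a prior of 1.75 degrees of freedom and SD 0.0893. It was tested on simulated data. All arrays came from 1 slide and 1 scan, and their number limits the precision of every value.

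The members and lists were chosen with earlier results of these data known. The named genes are all members, the extremes of each list for each strand among genes well above background on all 4 arrays, and *FN1*; some of these are not reported here. Alternatives were median scaling, quantile normalization, leaving out each mock array, normexp (offset 50, on the median spot signal), no filter, the brightest probe, probes clear of background on every array, the authors' log2 values, a limit of 1, an intensity trend, gene means and the methods' t-test. The mature miRNA sequences are not shown here.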

Additional observations from a re-analysis of the deposited data

Results flagged for a closer look

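These genes were flagged because their change differed between the strands by a test of the difference itself. The test was the limma contrast of the 3p array against the 5p array, with an adjusted p between 0.0119 and 0.0457. They are 19 of the 30 members with a value, and over all genes 8801 of 16561 passed the same test. Each strand has 1 array, so the spread behind this test is that of the mock arrays. The log2 differences of the genes higher after *miR-486-3p* were *ITGA1* 1.31, *ITGA7* 0.82, *ITGA10* 0.60, *ITGAV* 1.13, *ITGB3* 3.32, *ITGB7* 1.40, *ITGB8* 1.11, *LAMA2* 0.52, *LAMA3* 1.22, *LAMA5* 1.59, *LAMB2* 1.38 and *LAMC1* 0.82. Those of the genes lower after *miR-486-3p* were *ITGA2* −0.56, *ITGA5* −1.52, *ITGA6* −0.56, *ITGB4* −0.70, *LAMA1* −0.67, *LAMA4* −1.21 and *CD151* −1.01. The values of *ITGA1*, *LAMA1* and *LAMA4* include probes that were not well above background on one of the arrays. *LAMA3* passed on 1 of its 2 probes (2.05, against 0.39 on the other), *ITGA6* on 1 of 2 and *LAMA4* on 1 of the 3 in use. The calls of *ITGA7*, *ITGA10*, *LAMA2* and *LAMC1* were lost with median scaling.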

How the results depend on the processing

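Leaving out either mock array gave 15 members past a log2 difference of 0.5 for *miR-486-5p* (4833 to 4904 of all genes), as with both arrays, and 20 to 21 for *miR-486-3p* (9494 to 9513); limma has no residual degree of freedom in that case and gave no value. For *miR-486-5p* the number of genes that passed limma changed most, with 1647 of all genes and 8 members in the main setting. It was 3301 and 13 with median scaling, 7428 and 18 with normexp, 5727 and 17 with probes well above background on all 4 arrays, 7705 and 19 with an intensity trend, and 5079 and 17 on gene means. It was 0 and 0 in limma with no filter (9219 genes and 20 members at an unadjusted p under 0.05), in limma on the authors' log2 values (7837 and 21) and in the methods' t-test after Benjamini-Hochberg (4243 and 11). For *miR-486-3p*, limma passed 10331 genes and 21 members, and the methods' t-test 0 and 0 (7014 and 17 at an unadjusted p under 0.05). With no filter, 12 members passed between the strands, against 19. By size, normexp left 2047 genes and 9 members past the limit for *miR-486-5p* (4762 and 15 in the main setting), 5577 genes for *miR-486-3p* (9473), and 5146 genes and 11 members between the strands (9119 and 20). With a limit of 1 these were 1145 and 6, 4742 genes, and 4473 and 11. *LAMA4* changed sign for *miR-486-3p*, from −1.18 to 0.03, with probes well above background on all 4 arrays, where 1 of its probes remains. Over single genes and alternatives, 740 values kept their side of the threshold or stayed within the spread of the mock arrays, of which 36 changed sign (none had passed, and none was over 0.36 in size). Another 72 passed newly, 37 no longer passed, and both *LAMC3* values moved by more than that spread without the second mock array (−1.01 and −0.74). Dim probes limit *ITGA1*, *ITGB8*, *LAMA1* and *LAMA4*. Apart from these, the cause of the changes was not tested. No paired analysis was possible because each strand has 1 array, and a slide block could not be fitted with 1 slide.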
